A study of Mus musculus with 4 samples.

Results

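This section describes 10 genes of the ATF4 stress response (Asns, Trib3, Atf4, Atf5, Ddit3, Chac1, Sesn2, Nupr1, Ddit4 and Gdf15), out of 43432 genes counted by RNA sequencing in 4 mouse neuroblastoma tumours. The genes were taken by name, as established members of the ATF4 pathway, and the list was chosen by the fold changes and p-values of Asns and Trib3 in this same comparison. All values of the comparison between groups are therefore a description and are not a test of the pathway. All 4 tumours were grown subcutaneously in female C57BL/6 mice from the mouse neuroblastoma line 9464D-GD2, whose cells display the ganglioside GD2. Mice of the 2 dinutuximab tumours were dosed 2 times per week with 25 µg dinutuximab, an antibody against GD2, for 5 treatments. Mice of the 2 dinutuximab plus sEVs tumours received the same antibody schedule together with 20 µg small extracellular vesicles (sEVs) released by 9464D-GD2 cells. Both groups thus carry the antibody, and none of the 4 tumours was untreated. Mouse ages are not given in the sources used here, and the tumours are called by their label numbers, 3 and 4 in each group.

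ATF4 is a basic leucine zipper transcription factor of the integrated stress response. Kinases that sense amino acid shortage, unfolded protein, double-stranded RNA or haem shortage phosphorylate the translation factor eIF2, which lowers general protein synthesis but raises translation of the Atf4 mRNA. ATF4 protein then raises transcription of genes for amino acid synthesis and uptake, tRNA charging, mTORC1 inhibition and, under prolonged stress, cell death. Because that control acts on translation, the Atf4 mRNA is a poor reading of ATF4 protein, and target mRNAs are commonly used instead. Many targets carry a composite C/EBP-ATF element, at which ATF4 binds with a C/EBP partner.

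The RefSeq promoters (GRCm38.p6, 250 bases before the annotated start to 50 bases from it) were searched for this element as TGATGNAA on both strands, and all 10 genes had an entry. Matches were found for 4 of the 10, in Asns, Trib3, Chac1 and Nupr1, against 4.51% of the 27025 genes in the promoter table. The sequences around the 4 matches are shown because they carry the sequence feature that these genes share; the capitals mark the match and each sequence reads 5′ to 3′ on the strand of its gene.
Asns: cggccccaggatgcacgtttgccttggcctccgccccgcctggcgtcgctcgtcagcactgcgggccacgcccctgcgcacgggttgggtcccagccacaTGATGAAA
Trib3: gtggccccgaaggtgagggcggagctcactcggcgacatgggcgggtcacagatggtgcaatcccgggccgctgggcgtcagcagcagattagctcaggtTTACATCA
Chac1: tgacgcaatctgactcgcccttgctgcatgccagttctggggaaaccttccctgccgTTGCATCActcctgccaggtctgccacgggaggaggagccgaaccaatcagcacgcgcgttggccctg
Nupr1: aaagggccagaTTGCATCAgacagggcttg
The Asns stretch is chr6:7693225-7693332 on the minus strand, and its match reads on the gene strand. The Trib3 stretch is chr2:152344039-152344146 on the minus strand, the Chac1 stretch chr2:119350992-119351116 on the plus strand and the Nupr1 stretch chr7:126625562-126625591 on the minus strand. In these 3 genes the match reads on the opposite strand. The matches of Chac1 and Nupr1 share the same letters, TTGCATCA as printed and TGATGCAA on the other strand. With the RefSeq start base at 0, the first base of the match lies at -193 in Chac1, at -110 in Nupr1, at -23 in Asns and at 14 in Trib3, so that only the Trib3 match lies after the RefSeq start. Against the GENCODE M21 gene spans given further on, the Trib3 match lies before the gene, as does that of Chac1, and the matches of Asns and Nupr1 lie inside it. No match to this motif was found in the windows of the other 6 genes. The cAMP response element TGACGTCA and the ER stress response element, searched on both strands, had 0 matches in the 10 genes, against 2.03% and 0.137% of the genes in the table. A match gives the letters only and does not show that a factor binds there.

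**Figure D1:**
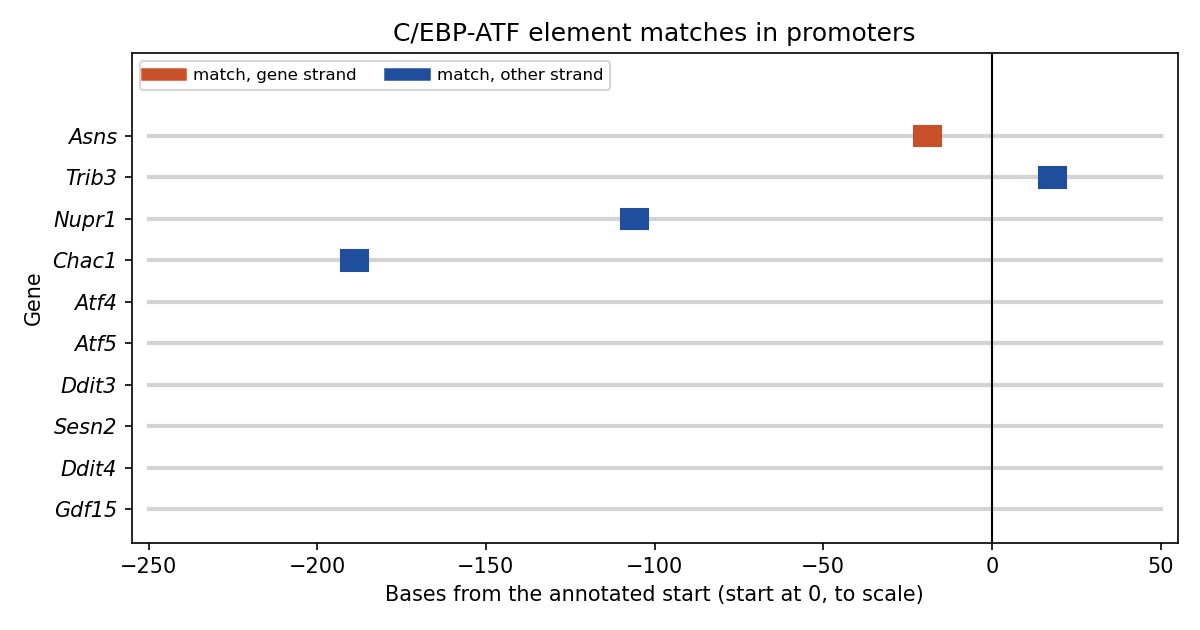
Matches to the C/EBP-ATF element TGATGNAA in the promoter windows of the 10 genes. The x axis is the distance in bases from the RefSeq start (start at 0), each grey line is the window of a gene, and coloured boxes are matches drawn to scale on the gene strand or the other strand. Only Asns, Trib3, Nupr1 and Chac1 have a box, and the Trib3 box alone lies after the RefSeq start.

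The libraries held between 24452699 and 28187573 counts, with between 18818 and 19164 genes detected. Levels are given as CPM, the standard unit of counts relative to library size, here with TMM factors. Among neuroblastoma markers, Hand1, Dbh and Elavl4 had no count in any library, whereas Hand2 stood between 145 and 172 CPM and Mycn between 133 and 162 CPM. Of the 16 listed markers of the labelled tumour type, 5 were at 0 in every library and 6 had enough counts to be tested. Among the principal components, the leading one (42.4% of the variance) placed sEV tumour 3 at 35.2 and the remaining 3 tumours from -16.3 to -5.96. With Benjamini-Hochberg adjusted p-values from edgeR, sEVs were linked to 0 higher genes (0%) and 0 lower genes (0%) out of 13823 tested. At an unadjusted p under 0.05, edgeR gave 770 genes, limma-voom 743 and DESeq2 660. After adjustment limma-voom called 0 genes, and DESeq2 called 17 higher and 38 lower.

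All 10 ATF4 genes had lower mean levels in the tumours given sEVs. The median log2 fold change of the 10 was -0.51, or 1.42-fold lower, beside a median of 0.00 over all genes tested. Their single log2 fold changes ran from -1.88 for Chac1 to -0.13 for Atf4. In 8 of the 10, both sEV tumours lay below both dinutuximab tumours, against 16.5% of all genes tested, and in Atf4 and Atf5 the groups overlapped. Negative fold changes were seen in 49.7% of all genes tested. The same 8 genes had an unadjusted p under 0.05 on the lower side in the edgeR quasi-likelihood test, as did 3.1% of all genes. None of the 10 passed the Benjamini-Hochberg adjusted threshold in edgeR, whereas Asns and Trib3 passed it in DESeq2 (adjusted p 1.9e-05 and 0.0041). Nothing is read from these counts because the genes were chosen with this contrast known. All 10 passed the low-count filter, the lowest count of any of them in a library being 24.

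**Figure D2:**
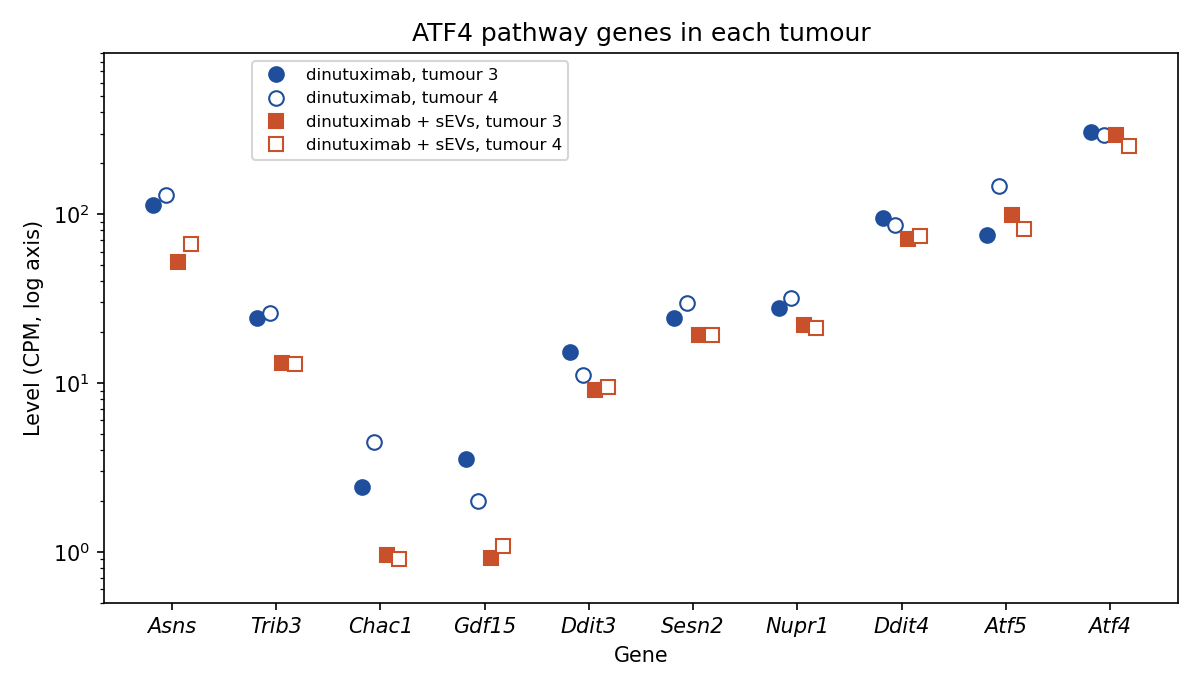
Level of the 10 genes in each tumour, in CPM on a log axis. Each symbol is 1 tumour, circles for dinutuximab and squares for dinutuximab plus sEVs, filled for tumours numbered 3 and open for tumours numbered 4. The squares lie below both circles in 8 genes and overlap with them in Atf5 and Atf4.

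Asns encodes asparagine synthetase, which makes asparagine from aspartate and glutamine and is a classical ATF4 target. Its level was 113 and 130.4 CPM in dinutuximab tumours 3 and 4, and 51.9 and 66.6 CPM in sEV tumours 3 and 4. The gap between the groups was wider than the spread within either group, and the log2 fold change was -1.04 ± 0.16 (SE), or 2.06-fold lower with sEVs. The counts behind these levels were 2912, 3184, 1358 and 1921. Trib3 encodes a pseudokinase that is induced by ATF4 and binds it, acting as a feedback inhibitor. It stood at 24.4 and 25.8 CPM with dinutuximab and at 13.1 and 13.0 CPM with added sEVs. The 2 tumours of a group were nearly alike in this gene. Its log2 fold change was -0.94 ± 0.16 (SE), or 1.92-fold lower.

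Chac1 and Gdf15 had the lowest levels and the widest folds of the 10. Chac1 encodes an enzyme that degrades glutathione and is a target of the ATF4 and CHOP branch. It had 2.42 and 4.46 CPM with dinutuximab and 0.955 and 0.901 CPM with sEVs, from counts of 62, 109, 25 and 26. Both sEV tumours were low, and the 2 dinutuximab tumours differed from each other by more than the sEV tumours did. The log2 fold change was -1.88 ± 0.40 (SE), or 3.69-fold lower. Without dinutuximab replicate 4 it was -1.38, and without dinutuximab replicate 3 it was -2.26. Gdf15 encodes a secreted stress cytokine that acts through the receptor GFRAL in the brainstem. It had 3.55 and 2.01 CPM with dinutuximab and 0.917 and 1.07 CPM with sEVs, from counts of 91, 49, 24 and 31. Here dinutuximab tumour 3 was the highest, whereas tumour 4 of that group was the highest for Chac1. The Gdf15 log2 fold change was -1.48 ± 0.39 (SE), or 2.78-fold lower, and -1.01 without dinutuximab replicate 3.

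Ddit3 encodes CHOP, a C/EBP family factor that acts late in the response and favours cell death. It had 15.3 and 11.2 CPM with dinutuximab and 9.05 and 9.43 CPM with sEVs, with a log2 fold change of -0.52 ± 0.21 (SE). The gap between dinutuximab tumour 4 and the nearest sEV tumour was small, and without dinutuximab replicate 3 the log2 fold change was -0.28. Nupr1 encodes a small chromatin-associated stress protein. It stood at 27.8 and 31.7 CPM with dinutuximab and at 22.0 and 21.2 CPM with sEVs, a log2 fold change of -0.46 ± 0.15 (SE). Its groups did not overlap, and the 2 sEV tumours were close to each other.

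Sesn2 and Ddit4 encode inhibitors of mTORC1, the kinase complex that promotes growth. Sestrin 2, the product of Sesn2, senses leucine. Sesn2 stood at 24.2 and 29.8 CPM with dinutuximab and at 19.2 CPM in both sEV tumours, a log2 fold change of -0.49 ± 0.16 (SE). Ddit4, whose product REDD1 is also induced by low oxygen and glucocorticoid, had 95.4 and 86.4 CPM with dinutuximab and 71.0 and 74.4 CPM with sEVs. Its log2 fold change was -0.32 ± 0.13 (SE). Neither gene showed overlap between the groups, and both differed by less than Asns and Trib3 did.

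The mRNAs of the 2 ATF factors themselves overlapped between the groups. Atf4 had 308 and 294 CPM with dinutuximab and 295 and 254 CPM with sEVs, and sEV tumour 3 lay between the 2 dinutuximab tumours. Its log2 fold change was -0.13 ± 0.13 (SE). Atf5, a related factor whose translation is also raised when eIF2 is phosphorylated, had 75.1 and 146 CPM with dinutuximab and 98.4 and 81.3 CPM with sEVs. Both sEV tumours lay between the 2 dinutuximab tumours, and the log2 fold change was -0.30 ± 0.27 (SE). Without dinutuximab replicate 4 it was 0.26, so the direction in Atf5 rested on that tumour. In the other 9 genes the direction was negative whichever tumour was left out.

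**Figure D3:**
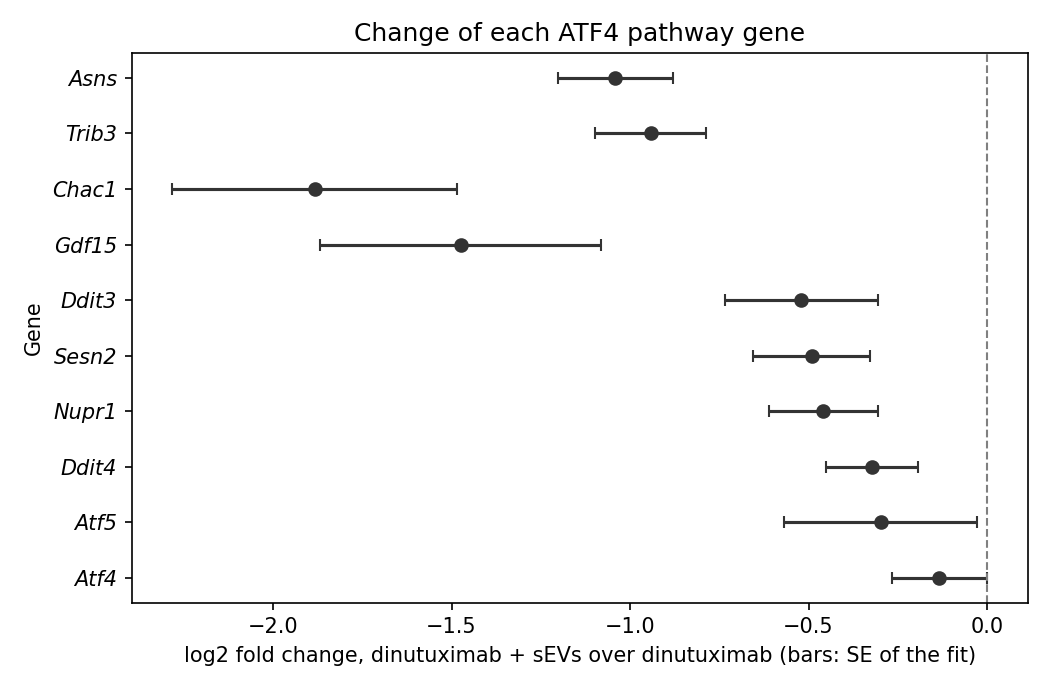
Log2 fold change of each gene, dinutuximab plus sEVs over dinutuximab (x axis), from the edgeR fit over all genes; bars are the SE and the dashed line is no difference. All 10 points lie below 0, from -1.88 for Chac1 to -0.13 for Atf4.

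**Figure D4:**
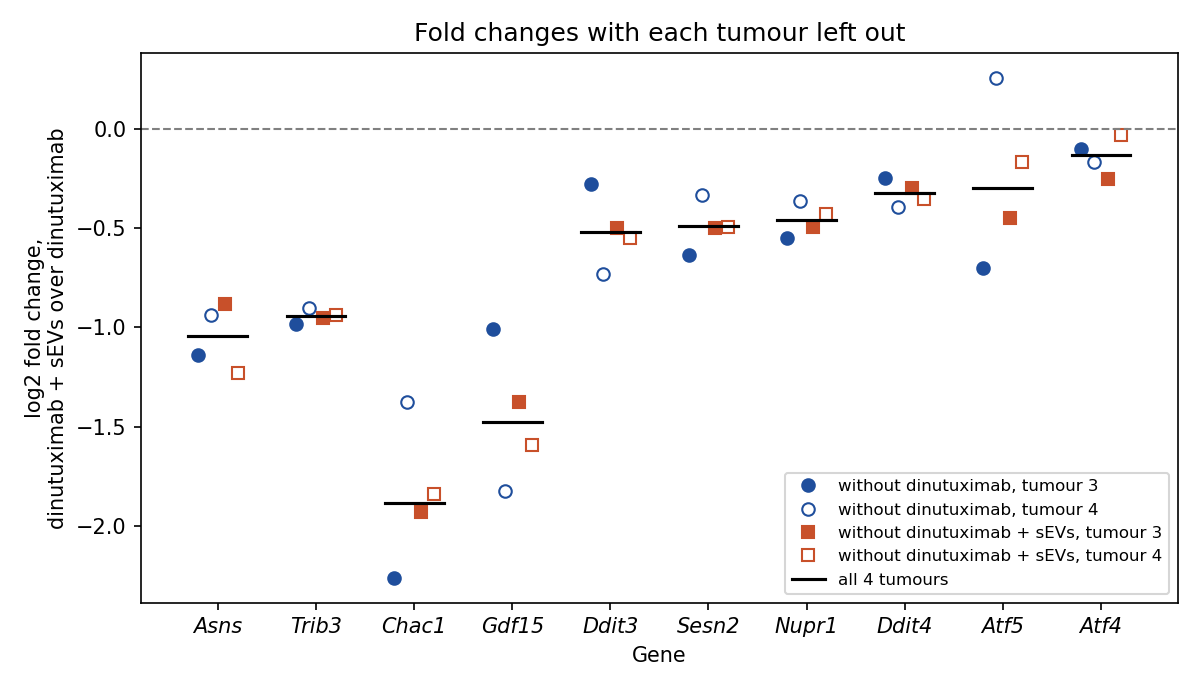
Log2 fold change of each gene (y axis) with all 4 tumours (black line) and with each tumour left out in turn (symbols). The symbol above 0 is Atf5 without dinutuximab tumour 4, at 0.26, and the Chac1 symbols run from -2.26 to -1.38.

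Averaged over the 10 genes, the level relative to the mean of each gene over the 4 libraries was 0.27 and 0.38 in dinutuximab tumours 3 and 4 and -0.33 in both sEV tumours, on the scale of log2(CPM + 0.5). The 2 sEV tumours were alike on this average although sEV tumour 3 stood apart from the other libraries over all genes. Within the dinutuximab group the genes did not move together: Atf5 and Chac1 were lower in tumour 3 than in tumour 4, by -0.96 and -0.89 on the log2 scale, while Gdf15 and Ddit3 were higher there by 0.82 and 0.45.

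Levels can be compared between genes only per length, here as CPM per kilobase of merged exons. The Atf4 mRNA was the most abundant of the 10, at a mean of 122 CPM per kilobase (from 108 to 131 over the 4 tumours). Atf5 (mean 50.3), Ddit4 (46.6) and Asns (33.1) followed, and neighbours in that order overlapped in their ranges over the 4 tumours. Nupr1 (10.2), Trib3 (8.98), Sesn2 (6.65) and Ddit3 (6.56) formed a lower range, again with overlap between neighbours. Chac1 (1.33) and Gdf15 (1.02) were the lowest, overlapped each other and lay below the range of Ddit3.

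All 10 are protein-coding genes on GRCm38 in GENCODE M21. Asns (ENSMUSG00000029752) spans 7675169 to 7693254 on the minus strand of chromosome 6. Trib3 (ENSMUSG00000032715) spans 152337422 to 152344032 on the minus strand of chromosome 2, and Chac1 (ENSMUSG00000027313) 119351229 to 119354381 on its plus strand. Atf4 (ENSMUSG00000042406) is on chromosome 15, from 80255184 to 80257541, plus strand. Chromosome 7 carries Atf5 (ENSMUSG00000038539, from 44812256 to 44816658) and Nupr1 (ENSMUSG00000030717, from 126623249 to 126630861), both on its minus strand. Chromosome 10 carries Ddit3 (ENSMUSG00000025408, from 127290774 to 127296288) on the plus strand and Ddit4 (ENSMUSG00000020108, from 59949669 to 59951834) on the minus strand. Sesn2 (ENSMUSG00000028893) spans 132492032 to 132510501 on the minus strand of chromosome 4, and Gdf15 (ENSMUSG00000038508) 70629393 to 70632456 on the minus strand of chromosome 8. Exons of Atf5 share 82 bases with Nup62 and 82 with Il4i1 on the opposite strand. Exons of Ddit3 share 68 bases with Mars and 13 with Gm4189 on the opposite strand, and 105 bases with a further annotated gene of the same name on the same strand. Counts in those stretches are uncertain: the strand setting of the counting is not given in the sources used here, and no strand setting separates the 105 bases shared on the same strand.

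Other genes of the ATF4 programme, a list of 46 enzymes, transporters, tRNA synthetases and factors, were mostly lower with sEVs as well. Of the 46, 41 passed the low-count filter, and 39 of those had negative and 2 positive log2 fold changes. With Benjamini-Hochberg adjusted p-values from edgeR, 0 were lower and 0 higher; at an unadjusted p under 0.05, 19 were lower and 0 higher, against 3.1% and 2.47% of all genes tested. The groups did not overlap in 33 genes that were lower and in 1 that was higher, against 16.5% and 18.1% of all genes. The median was -0.31, beside 0.00 over all genes tested, and without dinutuximab replicate 4 it was -0.23. The same choice with results known applies to this list. Its counts and median include Slc7a11, which passed the filter only through the dinutuximab libraries. They also include Cth, which the sEV libraries alone would not have carried past the filter.

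Among the enzymes of serine and one-carbon metabolism, Mthfd2, a mitochondrial folate enzyme, had 61.5 and 88.5 CPM with dinutuximab and 35.0 and 44.0 CPM with sEVs, a log2 fold change of -0.92 ± 0.20 (SE). Psat1, which makes phosphoserine, had 333 and 313 CPM against 228 and 223 CPM (-0.52 ± 0.12, log2 fold change and SE). Phgdh, the first enzyme of that pathway, had -0.34 ± 0.14, and Aldh18a1, which starts proline synthesis, -0.44 ± 0.16. In all 4 enzymes, from a list chosen with results known, both sEV tumours lay below both dinutuximab tumours, against 16.5% of all genes tested. Cth, which makes cysteine from cystathionine, was below 2 CPM in every library, with 31 and 44 counts with dinutuximab and 11 and 8 with sEVs. The sEV libraries alone would not have carried Cth past the low-count filter, so no fold is given for it. Slc7a11, the cystine transporter, had 15 and 34 counts with dinutuximab and 2 and 7 counts with sEVs. It passed the low-count filter only through the dinutuximab libraries, where it was high, so no fold is given. The subunits of the large neutral amino acid transporter differed less, with -0.33 ± 0.15 for Slc7a5 and -0.23 ± 0.13 for Slc3a2.

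Of the transcription factors in the list, Atf3, an early ATF4 target that is also an immediate early gene, had 21.2 and 16.7 CPM with dinutuximab and 7.79 and 9.84 CPM with sEVs, a log2 fold change of -1.10 ± 0.21 (SE). Cebpb, a partner of ATF4 at the composite element, had 102 and 110 CPM against 67.4 and 82.7 CPM (-0.50 ± 0.14, log2 fold change and SE). The log2 fold change was -0.16 ± 0.13 for the partner Cebpg, -0.30 ± 0.16 for Ppp1r15a, which returns eIF2 to its unphosphorylated state, and -0.11 ± 0.14 for Eif4ebp1, a repressor of cap-dependent translation. Eif4ebp1 overlapped between the groups and the other 4 did not, where 16.5% of all genes tested were lower without overlap. Vldlr and Stc2 had at most 3 counts in a library and were not tested, as were Cbs, Fgf21 and Slc7a3. The 2 positive values belonged to the synthetase genes Wars (0.26 ± 0.14) and Nars2 (0.21 ± 0.20).

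Genes that sense stress and act on eIF2 had values on both sides of 0. In the list of 20 eIF2 kinases, eIF2 and eIF2B subunits and their regulators, all 20 were tested, 6 had negative and 14 positive values and the median log2 fold change was 0.02. At an unadjusted p under 0.05 in edgeR, 0 were lower and 0 higher, against 3.1% and 2.47% of all genes tested. In a list of 20 genes, 0 is near those shares. The kinase genes had 0.00 ± 0.13 for Eif2ak1 (HRI), 0.08 ± 0.15 for Eif2ak2 (PKR), -0.17 ± 0.14 for Eif2ak3 (PERK) and 0.12 ± 0.16 for Eif2ak4 (GCN2), as log2 fold change and SE. Eif2s1, which encodes the subunit they phosphorylate, had 0.03 ± 0.15 and ranged from 187 to 243 CPM. The lowest p in the list belonged to Ppp1r15b (-0.20 ± 0.13), an eIF2 phosphatase subunit, and Oma1 (0.27 ± 0.18), a mitochondrial protease. mRNA levels do not show the activity of these kinases.

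The other arms of the unfolded protein response, run by ATF6 and XBP1, were represented by 26 genes, of which 25 were tested. Of these, 18 had negative and 7 positive values, with a median log2 fold change of -0.07. At an unadjusted p under 0.05 in edgeR, 0 were lower and 0 higher, near the 3.1% and 2.47% of all genes tested for a list of this size. Without dinutuximab replicate 3 the median was 0.05, and without dinutuximab replicate 4 it was -0.19. The sign of this median thus depended on dinutuximab tumour 3. Hspa5, the ER chaperone BiP, had 1180 and 865 CPM with dinutuximab and 960 and 1066 CPM with sEVs (-0.01 ± 0.16). Xbp1 had -0.33 ± 0.20, Hyou1, an ER chaperone, -0.28 ± 0.13, Dnajb9 0.13 ± 0.18, Ern1 0.08 ± 0.15 and Atf6 -0.07 ± 0.15. The difference between this list and the ATF4 genes was not tested.

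**Figure D5:**
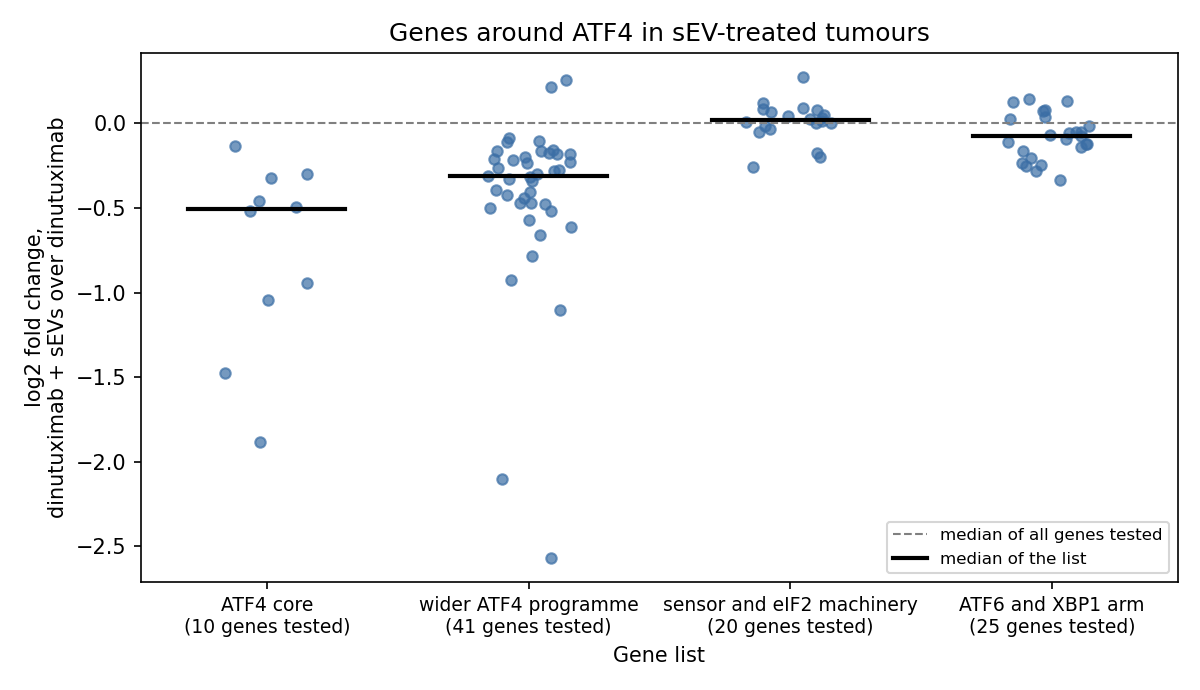
Log2 fold changes, dinutuximab plus sEVs over dinutuximab (y axis), of the tested genes of 4 lists (x axis). Each point is a gene, black bars are list medians and the dashed line is the median of all genes tested. The lowest points of the wider list are Slc7a11 and Cth, whose folds are not given in the text because of how they passed the low-count filter. The medians are -0.51, -0.31, 0.02 and -0.07 from left to right.

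In the wider list, 37 of 46 genes had a promoter entry and 13 of them, or 35.1%, held TGATGNAA, against 4.51% of all genes in the table. Among the 20 sensor and eIF2 genes 16 had an entry and 1 held it, and among the 26 ATF6 and XBP1 genes 22 had an entry and 0 held it. These counts describe the sets and were not tested.

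The genes of most similar profile were found by the Euclidean distance between log2(CPM + 0.5) profiles over the 4 libraries, each centred on its mean, among 9269 genes with a mean of at least 10 CPM. For Asns the 5 nearest were Fosl2 (distance 0.12), Hk2 (0.12), Egr1 (0.20), the unnamed ENSMUSG00000045999 (0.27) and Mthfd2 (0.27). For Trib3 they were ENSMUSG00000045999 (0.15), Fhl2 (0.18), Egr1 (0.19), Fosl2 (0.20) and Map3k1 (0.22). Mthfd2 is the only gene of the ATF4 lists among these. For Atf4 they were Hagh, Ccdc186, Kat8, Rpp14 and Numbl, all at a distance of 0.03. With 4 libraries many genes share a profile.

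Other features of the libraries moved with the same groups. The 10 genes that collect ribosomal RNA reads in the table took 6.05% and 6.36% of the dinutuximab libraries and 5.07% and 4.36% of the sEV libraries. Of 14 immediate early and heat shock genes 13 had negative values (median -0.37), and their summed level was 853 and 796 CPM with dinutuximab and 623 and 698 CPM with sEVs. The lowest p in that list belonged to Egr1 (-0.98 ± 0.17) and Nr4a1 (-0.66 ± 0.21). Of 14 hypoxia and glucose uptake genes 12 had negative values (median -0.49), and the lowest p belonged to Slc2a1 (-0.98 ± 0.14) and Hk2 (-0.98 ± 0.15). At an unadjusted p under 0.05 in edgeR, 9 of the 14 were lower and 0 higher, against 3.1% and 2.47% of all genes tested. The groups did not overlap in 9 that were lower and 2 that were higher, against 16.5% and 18.1% of all genes. The summed level of 11 macrophage markers was 2363 and 2693 CPM with dinutuximab and 3105 and 3038 CPM with sEVs. That of 7 red blood cell markers was 35.2 and 21.5 CPM against 71.1 and 43.6 CPM, and that of 9 fibroblast markers 644 and 639 CPM against 899 and 749 CPM. The sums were lower with sEVs for 8 smooth muscle markers (92.4 and 86.3 CPM against 53.1 and 34.2 CPM), 10 endothelial markers (159.6 and 181 CPM against 139 and 129 CPM) and 7 skeletal muscle markers (12.4 and 13.3 CPM against 8.71 and 5.20 CPM). The sum of 10 T and NK cell markers was 5.03 and 6.31 CPM against 4.24 and 10.4 CPM, and overlapped. Negative log2 fold changes were seen in all 7 smooth muscle markers tested (median -0.94) and in 9 of 10 endothelial markers (median -0.48). They were seen in 1 of 11 macrophage markers (median 0.26). The fibroblast sum was higher with sEVs although the median log2 fold change of its markers was -0.44. The part of these features in the values of the ATF4 genes was not tested. In bulk tumour RNA, fewer cells of a type and less RNA per cell cannot be told apart.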

How the data were processed

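RNA was extracted from flash-frozen tumours with RNeasy columns and made into stranded mRNA libraries, per the labels' protocols. The authors deposited raw counts per gene, in whole numbers, for 4 libraries; STAR, SAMtools, HTSeq and the mm10 genome are named in the submitters' processing notes. Their versions, the annotation release and the strandedness used in counting are not given in the sources used here. Ensembl IDs were matched to GENCODE M21 symbols for 42548 of 43432 genes, and unmatched IDs held at most 0.100% of counts.

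Counts were fitted with edgeR 4.0.16 in R 4.3.3 (filterByExpr, TMM scaling, quasi-likelihood F test, Benjamini-Hochberg adjustment over 13823 genes, threshold 0.05), with sEVs against no sEVs as the only term. The ± after a fold change is the SE, the absolute log2 fold change divided by the square root of F. The fit was also run on simulated data, in which genes of like level shared the same spread. Those runs do not show how well it finds changes in these tumours. Alternatives were DESeq2 1.42.0, limma-voom (limma 3.58.1), other scalings and filters, a replicate block and leaving out each tumour. The 2 tumours per group are called biological replicates in the series text, and an exact permutation test of 2 against 2 cannot go below p = 0.333.

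The 10 genes and all other lists were chosen with earlier results of these data known. Genes named beside the 10 were set by role in the 3 pathway lists, plus the 2 genes of lowest p in each pathway and context list, plus the 5 nearest profiles of Asns, Trib3 and Atf4. Wars and Nars2 were named after their values were seen. Some markers of the tumour type are not reported here.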

Additional observations from a re-analysis of the deposited data

How the results depend on the processing

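Genes called by edgeR at a Benjamini-Hochberg adjusted p under 0.05 numbered 0, against 55 with DESeq2, 262 without a low-count filter and 0 to 316 when 1 tumour was left out (132 without sEV replicate 3 and 316 without sEV replicate 4). The tumour numbers were shared by the groups, but the labels do not say what they mark; same-numbered tumours deviated together with a correlation of 0.0659 over 13823 genes, so no pairing was assumed. With the number as a replicate block 67 genes were called. Of the 10 ATF4 genes, Asns and Trib3 were called by DESeq2 (adjusted p 1.9e-05 and 0.0041) and with the block. The list was prompted by the values of Asns and Trib3 in this same comparison, so their calls are not a test. Without a filter, Chac1 and Gdf15 joined Asns and Trib3. The other 5 scaling and filter settings and limma-voom called none of the 10. The Asns log2 fold change was -1.05 ± 0.16 (SE) without a filter and -1.04 ± 0.16 in the main fit. The prior degrees of freedom set how far edgeR draws each gene toward a shared spread. Their median was 6.48 in the main fit and infinite without a filter. The cause of the added calls was not tested.

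The median log2 fold change of the 10 genes was -0.47 with total-count scaling and -0.67 to -0.50 with 1 tumour left out. Leave-one-out medians were -0.38 to -0.23 for the wider list, -0.040 to 0.054 for the sensors and -0.19 to 0.046 for the ATF6 and XBP1 genes. Atf5 ranged from -0.70 to 0.26 with 1 tumour left out, the reversed value being that without dinutuximab replicate 4. With a 200-base promoter window 3 of the 10 genes held the element. With 2 tumours per group, leaving out 1 assumes that the lone tumour varies like the other group.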

Other observations

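The sestrin genes Sesn1 and Sesn2 differed in sign, and Sesn1 was named for its low p in the list of p53 targets. Sesn1, a p53 target whose product also inhibits mTORC1, had 24.6 and 25.8 CPM with dinutuximab and 34.6 and 34.4 CPM with sEVs, a log2 fold change of 0.46 ± 0.14 (SE), while that of Sesn2 was -0.49 ± 0.16. Neither passed the adjusted threshold, and the difference between them was not tested. Of 12 p53 targets, 8 had negative and 4 positive values with a median of -0.06, and Plk2, a kinase of the same list, had -0.46 ± 0.18.

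The ER stress response element, which had 0 matches in the windows of the 10 ATF4 genes, was matched in 9 of the 22 ATF6 and XBP1 genes with a promoter entry (40.9%), against 0.137% of all genes in the table.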
